A study of Mus musculus with 4 samples.

Results

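Costimulatory receptors and receptors of the TNF-receptor family were read in the RNA-seq of stimulated mouse CD4+ T cells. The members were chosen by name, with earlier results of these data known. They were Cd28, Icos, Tnfrsf4, Tnfrsf9, Tnfrsf18, Cd27, Tnfrsf14, Tnfrsf1b, Tnfrsf25 and Cd40lg, and all 10 were found among the 16142 genes measured. Cd40lg encodes a ligand of the TNF family rather than a receptor, and Cd28 and Icos encode receptors of the immunoglobulin superfamily, so the name covers only some of the members in the strict sense. The study compared T cells with a form of Regnase-1 that the paracaspase MALT1 cannot cleave (R111A) with wild-type (WT) T cells. Regnase-1, encoded by Zc3h12a, is a ribonuclease that degrades mRNAs and is itself cut by MALT1 after T cell receptor engagement. There were 2 WT libraries from WT B6 mice and 2 R111A libraries from Cd4CreERT2 LSL-R111A fl/fl mice. In the latter, a CAG promoter, a floxed STOP cassette and the R111A coding sequence joined through P2A to EGFP lie in the Rosa26 locus. Cd4-driven CreERT2 removes the STOP cassette upon tamoxifen, which was given i.p. at 75 mg/kg for 5 days. Whether the WT mice of the RNA-seq also received tamoxifen cannot be told from the labels, and the WT mice carry neither CreERT2 nor EGFP. By the general methods, mice were young adults of either sex. Splenic CD4+ T cells of both groups were enriched by bead depletion of other cells, FACS sorted and kept for 12 h with 5 µg/mL of anti-CD3 and 1 µg/mL of anti-CD28. The general sorting methods gate GFP+ cells of reporter mice and part them by CD25, but whether this was done for the RNA-seq is not given in the sources used here, nor is it said that the libraries came from separate animals, so the p-values measure only the spread between these libraries.

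Costimulatory receptors give the T cell a signal beside that of the antigen receptor. CD28 and ICOS bind ligands of the B7 family and act through phosphatidylinositol 3-kinase and related kinases, and CD28 is present on resting T cells whereas ICOS is induced by activation. OX40, 4-1BB, GITR, CD27, HVEM, TNFR2 and DR3 belong to the TNF-receptor superfamily and relay their signal through TRAF adaptors to NF-kB, which supports survival and cytokine production.

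Levels are in FPKM, fragments scaled to transcript length and library size, a per-length unit that lets genes be set beside each other. Summed over all genes, WT libraries held 801475 and 836143 FPKM, whereas R111A libraries held 1053551 and 1012215 FPKM. Read counts were not used here. From the steps that single reads leave in values of 0.1 to 0.6 FPKM, the ratio of depths between WT replicate 1 and R111A replicates 1 and 2 was estimated at 1.06 and 1.18, so depth was of similar size in these libraries. The R111A replicates differed more from each other than the WT replicates did. For the 1938 genes averaging 50 FPKM or more, the spread of the log2 ratio was taken as the scaled median absolute deviation. It was 0.319 between the R111A replicates and 0.126 between the WT replicates, against 0.597 to 0.64 between libraries of different groups. Differences were tested with limma on log2(FPKM + 1) for the 9831 genes averaging 1 FPKM or more, and p-values were adjusted over all of them (Benjamini-Hochberg). A gene was called at an adjusted p under 0.05, and the 2-fold threshold was then added as a stricter call. The added 1 FPKM shrinks fold changes where levels are low. All 10 members passed the filter. The smallest two-sided p of an exact permutation of 2 against 2 libraries is 0.333, and the limma p-values therefore borrow their spread from the other genes.

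The labels were checked on Zc3h12a, whose level was 16.97 and 15.72 FPKM (WT) against 196.3 and 130.87 FPKM (R111A). It was higher in both R111A libraries, where reads of the transgene may be counted with those of the gene itself. T cell identity was read from 8 genes of a list of 11. Their FPKM summed to 2129 and 2118 in WT and to 1969 and 1830 in R111A, and none was at 0 in any library. Of the 8, 4 were called lower and 2 higher, and their median log2 fold change was -0.31. Lat, an adaptor of the T cell receptor, was the most abundant on average, at 413.13 and 436.42 FPKM (WT) against 580.08 and 583.08 FPKM (R111A). Cd4 itself was at 157.54 and 131.28 FPKM (WT) against 70.69 and 51.35 FPKM (R111A) (log2 fold change -1.24, adjusted p = 0.00057). Thy1, a surface glycoprotein of T cells, was at 96.47 and 98.09 FPKM (WT) against 25.54 and 25.11 FPKM (R111A) (log2 fold change -1.90, adjusted p = 1.3e-05). Other surface genes of the list did not follow, as Cd3d was called higher (log2 fold change 0.37, adjusted p = 0.029). Cd3e was not called (-0.08, adjusted p = 0.69). The labelled cell type was thus present in all 4 libraries, with lower levels of Cd4 and Thy1 in R111A.

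Of the 10 members, 5 were called lower in R111A (Icos, Cd40lg, Tnfrsf4, Tnfrsf18 and Tnfrsf25), where 32.1% of all genes tested were called lower. Another 4 were called higher (Tnfrsf9, Cd27, Tnfrsf1b and Tnfrsf14), where 21.2% of all genes were called higher. Cd28 was not called. With quantile normalization 3 members were called lower, without Icos and Cd40lg, beside 2624 of 9831 genes in place of 3152. With TPM 6 were, Cd28 included, beside 5128 of 9891 genes. The replicate block also gave 6, beside 3358 of 9831 genes. Icos and Cd40lg also lost their calls without WT replicate 1 or WT replicate 2, where fewer of all genes were called lower too. Cd28 was called without R111A replicate 2, where more of all genes were called lower. With the 2-fold threshold, Tnfrsf4 and Tnfrsf18 were called lower (2 of 10, against 8.34% of all genes) and Tnfrsf9, Cd27 and Tnfrsf1b were called higher (3 of 10, against 8.52%). The members moved in both directions, and the median log2 fold change was -0.42 against -0.12 over all genes tested. Their median absolute log2 fold change was 0.97, against 0.44 over all genes. Since the members were chosen with earlier results of these data known, these comparisons with all genes are descriptive and not tests. By mean level the members lay at percentiles 43.5 to 96.5 of the genes tested. The added 1 FPKM shrinks the changes of genes at low levels more. In all 10 members the WT and R111A values did not overlap, as in 78.3% of the genes tested. In bulk libraries like these, fewer cells that carry a transcript and less of it per cell cannot be told apart.

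**Figure D1:**
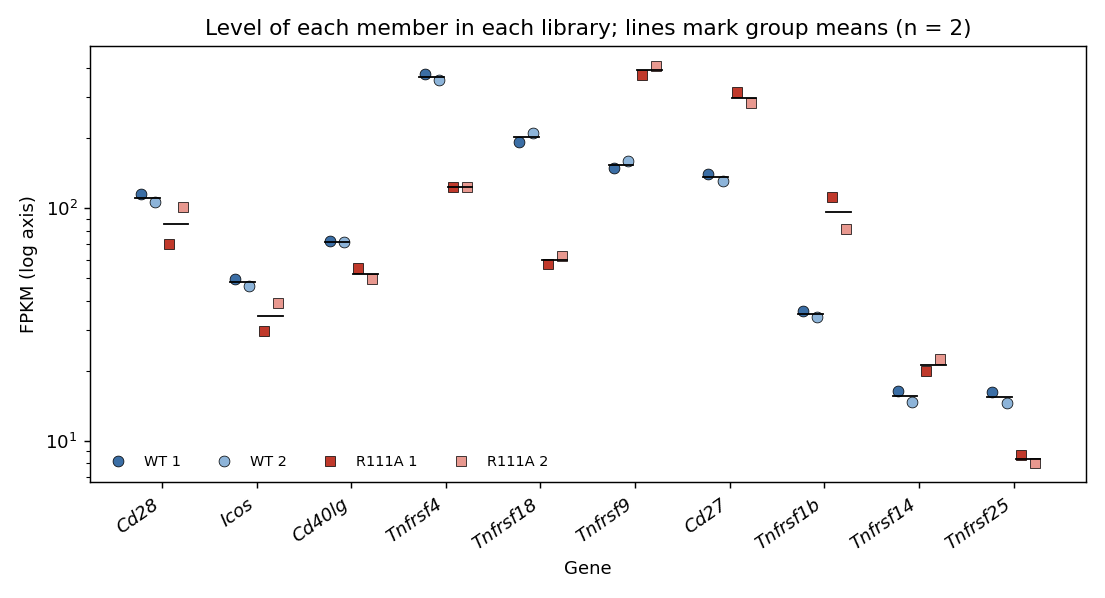
FPKM (log axis) of each member in WT replicates 1 and 2 (circles) and R111A replicates 1 and 2 (squares), with lines at the group means (n = 2). Tnfrsf4 and Tnfrsf18 lie lower in R111A, Tnfrsf9, Cd27 and Tnfrsf1b lie higher, and Cd28 and Tnfrsf1b show the widest gaps between the R111A replicates.

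The members were placed by their gene coordinates in the RefSeq annotation of GRCm38, the assembly of mm10, and 6 of the 10 lie on chromosome 4 within 10.8 Mb. Tnfrsf4 (NCBI gene 22163) spans chr4:156013595-156016613 and Tnfrsf18 (NCBI gene 21936) spans chr4:156026322-156028894, both on the plus strand and 9708 bp apart. Tnfrsf9 (NCBI gene 21942) spans chr4:150920155-150946104 on the plus strand and Tnfrsf1b (NCBI gene 21938) spans chr4:145212368-145246870 on the minus strand. Tnfrsf25 (NCBI gene 85030) lies at chr4:152115528-152120119 and Tnfrsf14 (NCBI gene 230979) at chr4:154918487-154928620. On this chromosome Tnfrsf4, Tnfrsf18 and Tnfrsf25 fell and Tnfrsf9, Tnfrsf1b and Tnfrsf14 rose. Cd28 (NCBI gene 12487, chr1:60746388-60773359) and Icos (NCBI gene 54167, chr1:60960773-61000322) are separated by 187413 bp. Cd27 (NCBI gene 21940) lies at chr6:125232620-125237136 and Cd40lg (NCBI gene 21947) at chrX:57212143-57224042. Some members overlap other genes, and whether the counting used strand is not given in the sources used here. Tnfrsf4 overlaps the annotated range of Sdf4 on the same strand, which was at 200.26 and 200.18 FPKM (WT) against 164.8 and 160.16 FPKM (R111A). The antisense partners of Tnfrsf9 and Cd27, Camta1 and Vamp1, were below 5 FPKM in each library. Reads from the overlapping stretches could not be assigned here.

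Regnase-1 is known to act on stem-loops in 3′UTRs whose loop holds a pyrimidine, a purine and a pyrimidine in a row, so the 3′UTRs of the members were searched for such structures. Each 3′UTR (principal transcript of GENCODE, GRCm38) was folded in windows of 100 nt, and a stem of at least 3 bp with at least 1 GC pair and a loop of 3 to 6 nt was counted. A match is a prediction and not a site of cleavage. Of the 10 members, 8 held at least 1 (80.0%), against 7819 of 9729 genes with a 3′UTR (80.4%). The stem-loops were found in 27.7% of the windows of the members and in 24.0% of the windows of all genes. Among the members called lower, 5 of 5 held at least 1, against 81.3% of all genes called lower. Among those called higher 2 of 4 did, against 76.6% of all genes called higher. With windows every 50 nt Cd27 held 1, and in its longest 3′UTR Tnfrsf14 held 1, so either alternative, both chosen after seeing the data, gave 3 of 4. No share over all genes is given for these alternatives, so this count cannot be set against the 76.6%. Tnfrsf4 held 2 in a 3′UTR of 180 nt, Tnfrsf18 held 1 in 279 nt, Tnfrsf25 held 1 in 272 nt and Cd40lg held 2 in 455 nt. Icos held 9 in 2606 nt and Cd28 held 10 in 3574 nt. Of the members called higher, Tnfrsf9 held 3 in 1232 nt, Tnfrsf1b held 8 in 2324 nt, and Cd27 (688 nt) and Tnfrsf14 (34 nt) held 0. The structures of the members with at most 3 are given here from 5′ to 3′ with the loop in capitals, to show what was counted in lower and higher genes. For Icos the structure with the most GC pairs (4) is added, and for Tnfrsf1b, where 6 structures share the most (2), the one among them with the longest stem (6 bp). Cd28 is not shown, and the genes differ in how many of their structures are printed. Tnfrsf1b is on the minus strand and the others on the plus strand.
Tnfrsf4, chr4:156016554-156016570: acuaccUGCCUgguggu
Tnfrsf4, chr4:156016599-156016609: agucUGUgacu
Tnfrsf18, chr4:156028778-156028787: gccCUAUggc
Tnfrsf25, chr4:152119891-152119904: aaguaUUGUuacuu
Cd40lg, chrX:57223698-57223709: cuccUCAUggag
Cd40lg, chrX:57224000-57224015: caaucUGUUAUgguug
Icos, chr1:61000191-61000204: ugcccUAUAgggcg
Tnfrsf9, chr4:150945024-150945033: acaUAUUugu
Tnfrsf9, chr4:150945098-150945121: uaugcacacGUGUGUgugugugug
Tnfrsf9, chr4:150945901-150945910: gguUGUUacu
Tnfrsf1b, chr4:145213843-145213860: cucuguCUGCCUauggag

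Cd28 encodes the receptor that anti-CD28 engaged in these cultures. Its level was 115.24 and 106.63 FPKM (WT) against 70.05 and 100.96 FPKM (R111A), replicate 1 before replicate 2. Both R111A values were below both WT values, but R111A replicate 2 lay close to WT. The log2 fold change of -0.39 (standard error, SE, 0.18, 95% interval -0.80 to 0.01) did not pass the test (adjusted p = 0.092). Cd28 was called with the replicate block (adjusted p = 0.025), though the replicate numbers do not establish a pairing. It was called without R111A replicate 2 (-0.65, adjusted p = 0.0017) and on the TPM scale (-0.73, adjusted p = 0.0033), and the adjusted p ranged from 0.0017 to 0.50 over the alternatives. Without R111A replicate 1 the log2 fold change of Cd28 was -0.13 (adjusted p = 0.25). Icos, the inducible relative of Cd28 that supports follicular helper and effector T cells, was at 49.45 and 46.47 FPKM (WT) against 29.76 and 39.16 FPKM (R111A). Its R111A values were apart from each other in the same direction as those of Cd28 and both lay below WT. The log2 fold change was -0.48 (SE 0.16, adjusted p = 0.032). The call was lost with quantile normalization (-0.32, adjusted p = 0.16), by median-of-ratios factors (-0.39, adjusted p = 0.063) and without a filter (-0.48, adjusted p = 0.08). It was also lost without WT replicate 1 or WT replicate 2, at log2 fold changes of -0.43 and -0.52. Without R111A replicate 1 the log2 fold change of Icos was -0.29 and still called, and at its lowest the adjusted p of Icos was 0.0011. The ratio of Icos to Cd28, which a constant factor for each library cannot change, was 0.429 and 0.436 in WT and 0.425 and 0.388 in R111A.

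Cd40lg encodes CD40 ligand, which activated helper T cells present to B cells and dendritic cells. The WT replicates were at 71.91 and 71.76 FPKM and the R111A replicates at 55.08 and 49.4 FPKM. The groups were separated, with little spread in WT. Cd40lg had a log2 fold change of -0.45 (SE 0.13) and an adjusted p of 0.017, lower in both R111A libraries. The call was lost with quantile normalization (log2 fold change -0.23, adjusted p = 0.16), and the lowest adjusted p over the alternatives was 0.00033. It was also lost without WT replicate 1 or WT replicate 2, where the log2 fold changes (-0.45 and -0.46) were about as large as with all libraries.

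Tnfrsf4 encodes OX40, a receptor induced on activated CD4+ T cells that prolongs their survival and is also present on regulatory T cells. It was at 376.36 and 356.24 FPKM (WT) against 123.66 and 123.29 FPKM (R111A). The replicates of each group lay close together and the groups were far apart. The group means differed by 2.97 times (log2 fold change -1.56, SE 0.12, adjusted p = 2.7e-05), so Tnfrsf4 fell in both R111A libraries. Tnfrsf18 encodes GITR, a receptor that enhances T cell responses and is likewise high on regulatory T cells. The WT replicates were at 192.45 and 210.76 FPKM and the R111A replicates at 57.41 and 62.35 FPKM. Again no R111A value came near a WT value. The fall of Tnfrsf18 was the largest among the members, at a log2 fold change of -1.73 (SE 0.13) and an adjusted p of 2.2e-05 and 3.37 times between the group means. Among all genes tested, 1.36% had a log2 fold change as low as that of Tnfrsf18 or lower, and 2.06% as low as that of Tnfrsf4. The calls of both genes held under each of the 14 alternatives, with the highest adjusted p at 0.0024 for Tnfrsf4 and 0.0025 for Tnfrsf18. Within a library the ratio of Tnfrsf4 to Tnfrsf18 was 1.96 and 1.69 in WT and 2.15 and 1.98 in R111A, so these neighbouring genes fell to a similar extent.

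Tnfrsf9 encodes 4-1BB, an activation-induced receptor best known for sustaining T cell responses. It was at 148.69 and 158.94 FPKM (WT) against 374.7 and 409.81 FPKM (R111A). Both R111A libraries stood well above both WT libraries. Tnfrsf9 rose by a log2 fold change of 1.34 (SE 0.12) and an adjusted p of 6.3e-05, or 2.55 times between the group means. Cd27, a receptor of naive and memory T cells that binds CD70, was at 140.62 and 131.25 FPKM (WT) against 316.13 and 282.28 FPKM (R111A). The groups did not overlap and the R111A replicates differed by less than the groups did. Its log2 fold change was 1.13 (SE 0.13, adjusted p = 0.00017). After rescaling to TPM it stayed called but fell under the 2-fold threshold, at 0.80 (adjusted p = 0.00022, within a range of 1.6e-11 to 0.0042 over the alternatives). Tnfrsf1b encodes TNFR2, the TNF receptor through which T cells receive a survival signal, and was at 36.27 and 33.95 FPKM (WT) against 111.2 and 81.37 FPKM (R111A). R111A replicate 1 was the highest, and R111A replicate 2 was still well above WT. Tnfrsf1b rose by 2.74 times between the group means, with a log2 fold change of 1.41 (SE 0.17) and an adjusted p of 0.00021. This was the highest of the members, but Tnfrsf9 lay above Tnfrsf1b without R111A replicate 1 (1.41 against 1.19) and without WT replicate 2 (1.39 against 1.37), and they were level with a pseudocount of 5 FPKM (1.32 in both). Leaving out each library in turn gave values from 1.19 to 1.64 for Tnfrsf1b, 1.28 to 1.41 for Tnfrsf9 and 1.05 to 1.21 for Cd27, and all 3 stayed called in each case.

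Tnfrsf14 and Tnfrsf25 were the least abundant members. Tnfrsf14 encodes HVEM, which binds LIGHT and the inhibitory receptor BTLA. Its values were 16.27 and 14.73 FPKM in WT and 19.87 and 22.41 FPKM in R111A. The R111A values were higher in both libraries by a narrow margin. The log2 fold change was 0.42 (SE 0.14, adjusted p = 0.032), and the call was lost after rescaling to TPM (0.11, adjusted p = 0.58), with no filter (0.42, adjusted p = 0.054), without WT replicate 1 (adjusted p = 0.18) and without WT replicate 2 (adjusted p = 0.35). The lowest adjusted p of Tnfrsf14 was 0.0084. Tnfrsf25 encodes DR3, a receptor for TL1A that costimulates T cells. It was at 16.25 and 14.48 FPKM (WT) against 8.65 and 8.04 FPKM (R111A). The R111A replicates were close to each other and below WT. Tnfrsf25 fell by 0.81 on the log2 scale (SE 0.14, adjusted p = 0.0016), and the call held under each of the 14 alternatives (highest adjusted p = 0.037). With TPM its log2 fold change passed the 2-fold threshold, at -1.12.

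The scaling of the libraries moved all genes at once. The median log2 fold change of all genes was -0.12 with FPKM as deposited, -0.42 after rescaling to TPM, -0.04 with quantile normalization and -0.03 by median-of-ratios factors. Of the genes called, 60.2% were lower and 39.8% higher with FPKM, against 79.3% lower and 20.7% higher with TPM. TPM differs from FPKM by a constant factor for each library, so values relative to the median of all genes must be nearly the same on both. Tnfrsf18 was at -1.62 and -1.65 and Tnfrsf4 at -1.45 and -1.48 relative to that median. On the other side, Tnfrsf9 was at 1.46 and 1.43, and Cd27 at 1.25 and 1.22, while Tnfrsf1b was at 1.53 with FPKM. Tnfrsf14, whose call was lost with TPM, was at 0.54 and 0.53 (FPKM and TPM) relative to the median. Cd28 was at -0.28 and -0.31, Icos at -0.36 and -0.39, and Cd40lg at -0.34 and -0.37. Quantile normalization can move genes apart, and with it Cd28 was at -0.12, Icos at -0.27 and Cd40lg at -0.19 relative to the median. No member changed direction under any of the 14 alternatives.

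**Figure D2:**
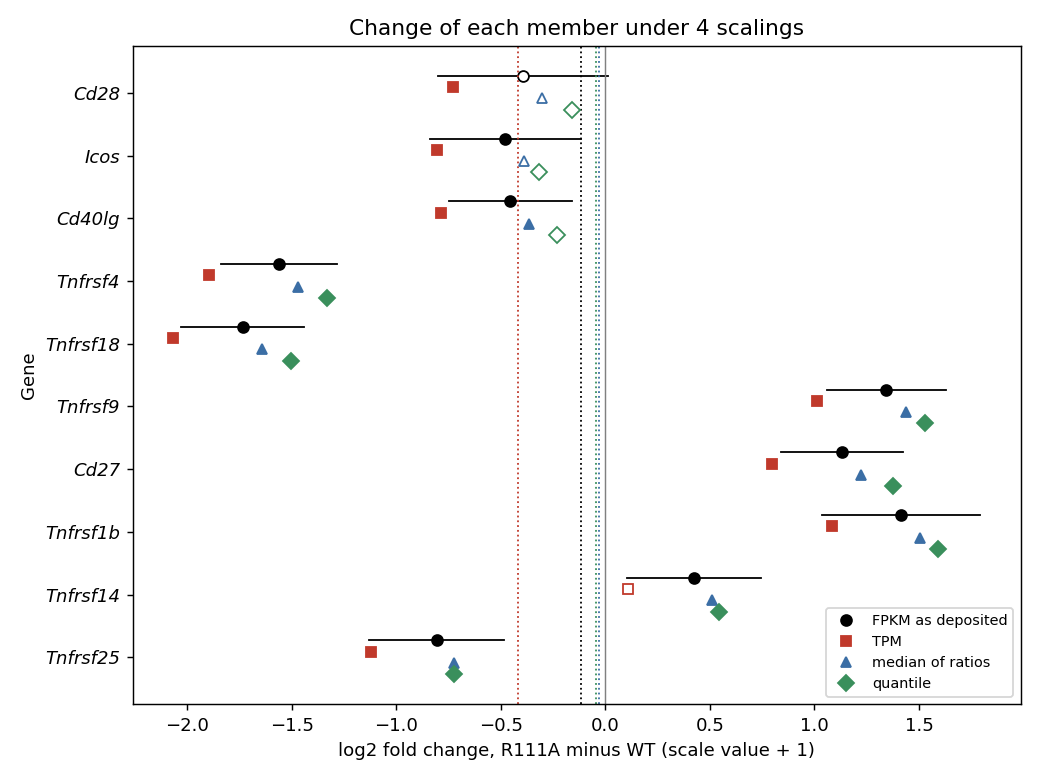
log2 fold change (R111A minus WT, on value + 1) of each member with FPKM as deposited (black circles, lines are 95% intervals), TPM (red squares), median-of-ratios factors (blue triangles) and quantile normalization (green diamonds), with filled symbols for adjusted p under 0.05 and dotted lines at the median of all genes under each scaling. Tnfrsf18 and Tnfrsf4 lie at -1.73 and -1.56 and Tnfrsf1b and Tnfrsf9 at 1.41 and 1.34 with FPKM, and the open symbols are confined to Cd28, Icos, Cd40lg and Tnfrsf14.

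Added up, the members had about the same level in all libraries as FPKM. Their FPKM summed to 1164 and 1145 in WT and to 1167 and 1179 in R111A. As TPM, WT summed to 1452 and 1370 against 1107 and 1165 for R111A, so whether the total fell depends on the scaling. Their make-up within a library does not change with a constant factor for each library such as TPM. Tnfrsf4 made up 32.3% and 31.1% of the sum in WT and 10.6% and 10.5% in R111A, and Tnfrsf18 went from 16.5% and 18.4% to 4.92% and 5.29%. Tnfrsf9 made up 12.8% and 13.9% in WT and 32.1% and 34.8% in R111A, and Cd27 went from 12.1% and 11.5% to 27.1% and 23.9%. The most abundant member was Tnfrsf4 in both WT libraries and Tnfrsf9 in both R111A libraries. The ratio of Tnfrsf9 to Tnfrsf4 was 0.395 and 0.446 in WT and 3.03 and 3.32 in R111A. By group means, the order in WT was Tnfrsf4, Tnfrsf18, Tnfrsf9, Cd27, Cd28, Cd40lg, Icos, Tnfrsf1b, Tnfrsf14 and Tnfrsf25. In R111A it was Tnfrsf9, Cd27, Tnfrsf4, Tnfrsf1b, Cd28, Tnfrsf18, Cd40lg, Icos, Tnfrsf14 and Tnfrsf25. The replicate values of the neighbours Tnfrsf1b and Cd28 overlapped in R111A, and so did those of Tnfrsf14 and Tnfrsf25 in WT. The values of the other neighbours in these orders did not overlap.

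**Figure D3:**
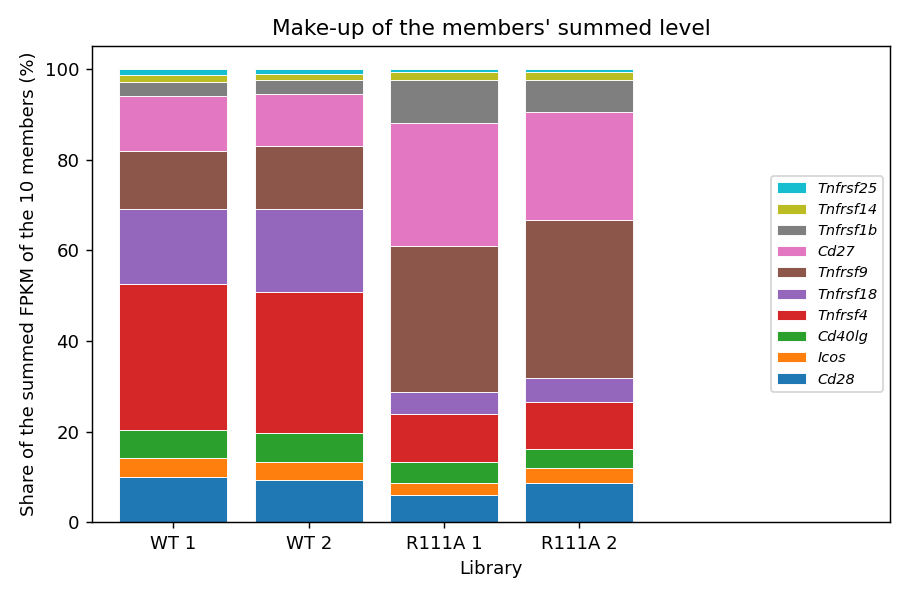
Share (%) of each member in the summed FPKM of the 10 members, with 1 stacked bar for each library. Tnfrsf4 takes 32.3% and 31.1% in WT and 10.6% and 10.5% in R111A, while Tnfrsf9 takes 12.8% and 13.9% in WT and 32.1% and 34.8% in R111A.

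The ligands and partners of the members were read from a list of 15 genes, of which 11 were tested. Of these, 3 were called lower and 4 higher, and the median log2 fold change was 0.03. Cd80 and Cd40 passed the filter only through the group where they were high, and without them 2 were called lower and 3 higher, at the same median. Tnfsf4 encodes OX40 ligand, the partner of Tnfrsf4, and was at 3.04 and 4.57 FPKM (WT) against 35.59 and 53.18 FPKM (R111A). Receptor and ligand thus moved in opposite directions, with a log2 fold change of 3.23 for Tnfsf4 (SE 0.22, adjusted p = 1.5e-05). In R111A the ratio of Tnfsf4 to Tnfrsf4 was 0.288 and 0.431, against 0.00808 and 0.0128 in WT. Ltb, which encodes lymphotoxin beta, was at 274.62 and 319.73 FPKM (WT) against 1084.7 and 896.57 FPKM (R111A) (log2 fold change 1.73, adjusted p = 3.9e-05). Tnf, the ligand of TNFR2, rose less, at a log2 fold change of 0.60 (adjusted p = 0.0062). Around HVEM, both the ligand gene Tnfsf14 (WT 21.93 and 21.63 FPKM, R111A 7.54 and 9.07 FPKM) and the partner gene Btla (WT 112.27 and 118.41 FPKM, R111A 42 and 66.98 FPKM) fell, with log2 fold changes of -1.30 (adjusted p = 0.00016) and -1.11 (adjusted p = 0.0021). Cd160, another partner of HVEM, was not called (log2 fold change -0.03, adjusted p = 0.88), with 10.51 and 11.53 FPKM (WT) against 9.9 and 11.7 FPKM (R111A). The ratio of Btla to Tnfrsf14 was 6.9 and 8.04 in WT and 2.11 and 2.99 in R111A. Cd40, the receptor for CD40 ligand and mainly a gene of antigen-presenting cells, was low throughout (WT 3.5 and 3.51 FPKM, R111A 0.49 and 0.53 FPKM), and its test is not used because it passed the filter only through WT. Tnfsf18, the ligand of GITR, was listed at 0 in all 4 libraries, and Icosl, Cd70 and Tnfsf15 had a mean below 1 FPKM and were not tested.

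Among other genes of the TNF-receptor superfamily, 12 of a list of 21 were tested, of which 5 were called lower and 6 higher, and the median log2 fold change was 0.37. Cd40, Tnfrsf8 and Tnfrsf23 passed the filter only through the group where they were high, and without them 3 were called lower and 5 higher, and the median was 0.96. The median of the 12 is unstable, at 0.96 without WT replicate 1 and 0.85 without WT replicate 2 (3 called lower in each), and at 0.01 with no filter and 1.12 with a filter at 5 FPKM. The genes past the 2-fold threshold included the death receptor genes Fas and Tnfrsf10b. Fas was at 17.59 and 19 FPKM (WT) against 69.26 and 94.68 FPKM (R111A), a log2 fold change of 2.09 (SE 0.17) and an adjusted p of 3.1e-05. Tnfrsf10b, the mouse TRAIL receptor, had a log2 fold change of 1.28 (adjusted p = 0.00012), and Tnfrsf12a, the receptor of TWEAK, had 1.29 (adjusted p = 0.00031). Tnfrsf26 was at 7.09 and 5.27 FPKM (WT) against 35.12 and 40.7 FPKM (R111A) (log2 fold change 2.45, adjusted p = 1.5e-05). It is related to its neighbours Tnfrsf22 and Tnfrsf23, so reads may have been split between them and its value is uncertain. Tnfrsf21 (death receptor 6) fell past 2-fold, at -1.04 (adjusted p = 0.00074). Tnfrsf1a, the receptor of TNF that holds a death domain, rose with Tnfrsf1b but less (log2 fold change 0.96, adjusted p = 0.0016).

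Other costimulatory and adhesion receptors were called lower in 6 and higher in 2 of the 11 tested from a list of 12, and the median log2 fold change was -0.40. Without WT replicate 1 these counts were 3 and 1, without WT replicate 2 they were 4 and 1, and without R111A replicate 1 they were 5 and 4. With quantile normalization 4 were called lower and 4 higher, by median-of-ratios factors 4 and 3, and with TPM 6 and 1. The median was -0.22 without R111A replicate 2, -0.17 with quantile normalization and -0.73 with TPM. Cd226 (DNAM-1), which costimulates T cells and NK cells, was at 25.46 and 27.53 FPKM (WT) against 1.97 and 3.41 FPKM (R111A) (log2 fold change -2.92, SE 0.20, adjusted p = 1.4e-05). Itgal, the alpha chain of the integrin LFA-1, was at 132.84 and 122.31 FPKM (WT) against 39.5 and 32.31 FPKM (R111A) (log2 fold change -1.81, adjusted p = 3.0e-05). Against these, Crtam, a receptor of activated T cells that binds a nectin-like protein as Cd226 binds nectin-related ligands, rose from 29.01 and 31.68 FPKM to 82.43 and 99.61 FPKM (log2 fold change 1.55, adjusted p = 6.2e-05). In the TRAF and NF-kB relay list, all 24 genes were tested, of which 1 was called lower, 7 were called higher and 16 were not called, and the median log2 fold change was 0.15. The balance turned with TPM, to 8 lower and 3 higher. Without WT replicate 1 or 2 there were 1 lower and 4 higher, and without R111A replicate 1 or 2 there were 4 lower and 10 higher. Traf2, an adaptor that many members bind, was at 20.08 and 22.3 FPKM (WT) against 55.33 and 53.68 FPKM (R111A) (log2 fold change 1.32, adjusted p = 8.6e-05). Traf4 was the 1 gene called lower with FPKM (log2 fold change -1.02, adjusted p = 0.001). Of the signalling genes near CD28 and ICOS, 20 of 20 were tested, and 5 were called lower and 4 higher, and the median log2 fold change was -0.12, equal to that of all genes at this rounding. With TPM 11 were called lower and 3 higher, and the count called lower was 3 without WT replicate 1, 2 without WT replicate 2 and 8 without R111A replicate 1. Malt1, the protease that cleaves Regnase-1, was at 65.89 and 66.14 FPKM (WT) against 134.6 and 186.49 FPKM (R111A) (log2 fold change 1.25, adjusted p = 4.0e-04). Grap2, an adaptor of CD28, rose (1.04, adjusted p = 0.00051), and Akt1, a kinase below phosphatidylinositol 3-kinase, fell from 83.65 and 86.03 to 48.87 and 35.71 FPKM (adjusted p = 0.0012). With TPM the list medians turned negative for the ligands and partners (-0.30) and for the TRAF and NF-kB relay (-0.18). The median of CD28 and ICOS signalling turned positive with quantile normalization (0.06) and with a filter at 5 FPKM (0.02).

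**Figure D4:**
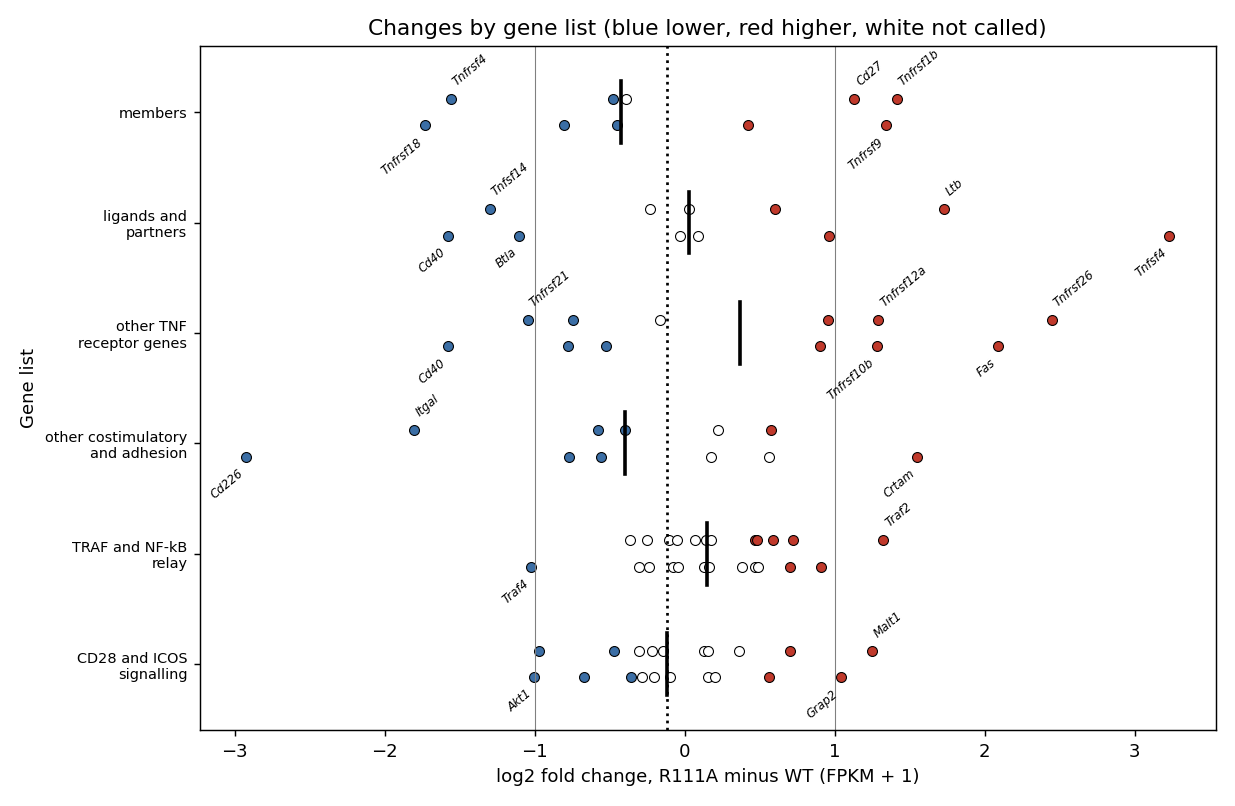
log2 fold change (R111A minus WT, FPKM + 1) of each gene tested in the list of members and in 5 lists around them, blue for called lower, red for called higher and white for not called, with thick lines at the list medians, a dotted line at the median of all genes, grey lines at 2-fold and names for genes past 2-fold. Tnfsf4 (3.23), Tnfrsf26 (2.45) and Fas (2.09) lie farthest to the right, and Cd226 (-2.92) farthest to the left.

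The genes nearest to the outermost members in pattern were sought among the 7648 genes averaging 5 FPKM or more, by Euclidean distance of centred log2(FPKM + 1) over 4 libraries. Nearest to Tnfrsf18 were Sinhcaf (distance 0.0454), a component of a histone deacetylase complex, Nudt19 (0.0763) and Nip7 (0.0771), a ribosome biogenesis factor. Nearest to Tnfrsf1b were Sesn2 (distance 0.0636), a stress-induced regulator of mTORC1, Tbxa2r (0.0869), the thromboxane receptor, and Pecam1 (0.0897), an adhesion molecule. With 4 libraries in 2 groups, such a distance mostly records the same size of change.

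Markers of T cell states moved beside the members. Of the 11 regulatory T cell (Treg) markers tested in a list of 12, 5 were called lower and 3 higher, and the median log2 fold change was -0.36. Foxp3, the transcription factor that defines Tregs, was at 11.31 and 8.78 FPKM (WT) against 2.86 and 1.86 FPKM (R111A) (log2 fold change -1.72, adjusted p = 0.00015). Ctla4 (-1.90), Lrrc32 (-1.41) and Gpr83 (-1.11) also fell past 2-fold. The 3 called higher were Nt5e (0.64, adjusted p = 0.009), Ikzf4 (0.53, adjusted p = 0.027) and Capg. Ikzf2 (-0.35, adjusted p = 0.19) and Nrp1 (-0.33, adjusted p = 0.08) were not called, so the list did not move as 1. The summed level of the list was 674.2 and 697.1 FPKM in WT and 791.5 and 767.9 FPKM in R111A. Its most abundant gene was Capg (WT 334.18 and 365.5 FPKM, R111A 537.11 and 512.04 FPKM), which activated T cells also express, and Il2ra did not pass the test (log2 fold change -0.11, adjusted p = 0.47). None of the Treg markers was at 0 in any library. Of 8 markers of resting naive T cells, 6 were called higher and 0 lower, and the median log2 fold change was 1.15, in the direction of Cd27. Their sum was 667.1 and 616.4 FPKM in WT and 1310 and 992.2 FPKM in R111A, with Ccr7 the most abundant at 369.71, 349.26, 588.14 and 511.21 FPKM in that order. Il7r, the IL-7 receptor, was at 4.58 and 3.77 FPKM (WT) against 43.62 and 37.54 FPKM (R111A) (log2 fold change 3.01, adjusted p = 4.8e-06). Of 10 activation markers, 4 were called lower and 5 higher, and the median log2 fold change was 0.17. Irf4 fell (-1.65) and Nr4a1, the most abundant by the mean of all 4 libraries, rose from 145.72 and 143.84 to 982.95 and 616.23 FPKM (2.42). The activation list summed to 1467 and 1400 FPKM in WT and to 2238 and 1962 FPKM in R111A. The part of Treg content or activation state in the changes of the members was not tested.

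Markers of other cells were low. NK cell markers (7 listed) summed to 2.75 and 2.28 FPKM in WT and to 24.23 and 22.61 FPKM in R111A. The 4 that passed the filter did so through their R111A values, so their calls are not counted. Klrd1 led at 12.14 and 13.59 FPKM in R111A, against 1 and 0.4 FPKM in WT, while the defining gene Ncr1 was at most 0.3 FPKM. Myeloid markers (10 listed, of which Lyz2 and Cd68 passed the filter, Lyz2 through R111A) summed to 2.22 and 1.45 FPKM in WT and to 16.01 and 11.48 FPKM in R111A, led by Cd68 (8.89 and 6.81 FPKM in R111A), with Fcgr1 and S100a9 at 0 in all libraries. Erythroid markers (6 listed, of which Hba-a1 passed the filter through R111A) summed to 0.66 and 0.7 FPKM in WT and to 12.93 and 12.97 FPKM in R111A, nearly all from Hba-a1, with Hbb-bs and Hba-a2 at 0. B cell markers (9 of 11 used) summed to 36.11 and 36.31 FPKM in WT and to 41.52 and 35.97 FPKM in R111A. Cd74 led, and Ms4a1 was below 1 FPKM in each library. Of the 5 tested, Cd79a and Cd79b passed the filter only through R111A, so their calls are not counted. The other 3 were not called. Cd79a was at 0.32 and 0.24 FPKM (WT) against 2.99 and 2.37 FPKM (R111A). CD8 T cell markers (2 listed, 1 tested and called lower) summed to 7.31 and 6.76 FPKM in WT and to 3.88 and 4.46 FPKM in R111A, led by Cd8b1. These sums compare with 1145 to 1179 FPKM for the members, and in R111A they were higher for NK, myeloid and erythroid markers. The part of such cells in the changes of the members was not tested. Sex-linked genes on the Y chromosome were present in all 4 libraries (Eif2s3y at 58.89 and 63.14 FPKM (WT) against 45.51 and 59.9 FPKM (R111A)), and their sum was 91.88, 97.88, 87.05 and 120.5 FPKM in the same order, with 3 of the 4 tested called higher in R111A.

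**Figure D5:**
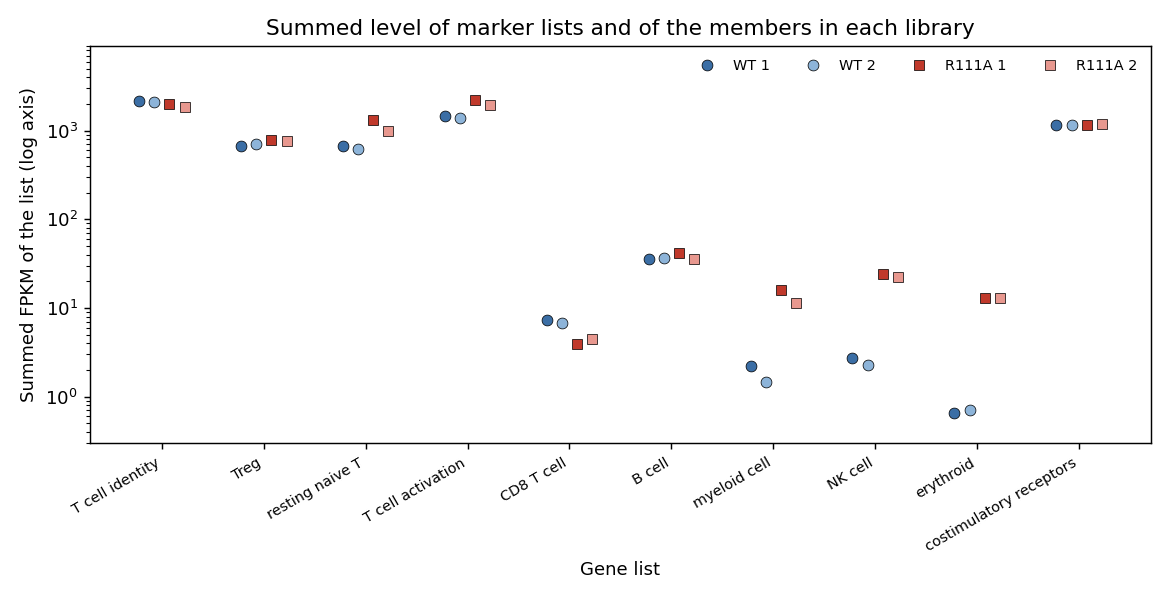
Summed FPKM (log axis) of each marker list and of the members in WT replicates 1 and 2 (circles) and R111A replicates 1 and 2 (squares). The members sum to 1145 to 1179 FPKM in every library, and the NK, myeloid and erythroid lists stay below 25 FPKM with their higher values in R111A.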

How the data were processed

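RNA-seq of stimulated CD4+ T cells from spleen was used, with 2 WT and 2 R111A libraries grouped by their labels. Per the methods and processing notes, polyA RNA was sequenced, and the authors used Bowtie2 2.4.4 for alignment to mm10 and RSEM 1.2.28 for expression levels. The authors deposited 1 table of FPKM values, with 1 column for each library and 0 further columns of values. The authors used DESeq2 on counts, a step not repeated here. The members were found by gene symbol, and the members and lists were chosen with earlier results of these data known. Genes averaging 1 FPKM or more were tested on log2(FPKM + 1) by lmFit and trended eBayes of limma 3.58.1 (R 4.3.3), after the script had been tested on simulated data. Genes named were the members, Zc3h12a, every gene of a pathway list past 2-fold at an adjusted p under 0.05 (otherwise the 3 with the lowest adjusted p), the 3 genes nearest to the lowest and to the highest member, and the markers by list. Tnf, Cd80, Cd160, Tnfrsf1a, Tnfrsf8, Tnfrsf23, Sdf4, Camta1, Vamp1, Tnfsf18 and single markers were named after their values were seen. Lists were described by counts and medians. The lists were of ligands and partners, other TNF-receptor genes, other costimulatory and adhesion receptors, TRAF and NF-kB relay, CD28 and ICOS signalling, T cell identity, Tregs, resting naive T cells, activation, CD8 T cells, Y-linked genes and, as other lineages, erythroid, NK, myeloid and B cells. Stem-loops were predicted with RNAfold 2.7.2 in GENCODE transcripts of GRCm38. Alternatives were pseudocounts of 0.1 and 5 FPKM, no filter or a filter at 5 FPKM, quantile normalization, TPM, median-of-ratios factors, robust or untrended eBayes, a replicate term, and leaving out each library.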

Additional observations from a re-analysis of the deposited data

How the results depend on the processing

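With 2 libraries a group, the precision of each value is limited, and the number of reads behind it is not known. Where a library was left out, the lone library of its group was assumed to vary like the other group. Leaving out each library in turn gave 1903 to 3883 genes called lower and 1464 to 2504 higher by adjusted p, and 3 to 6 members called lower and 3 to 4 higher. With the 2-fold threshold these ranges were 812 to 887 and 785 to 884 genes. Rescaling to TPM gave 5128 lower and 1337 higher genes, and 1756 lower past 2-fold. A pseudocount of 5 FPKM gave 402 lower and 386 higher genes past 2-fold, and a filter at 5 FPKM gave 521 higher, with fewer genes tested. Quantile normalization left 3 members called lower; the cause was not tested. In the pairing check, same-numbered libraries had a correlation of 0.11 over genes in their deviations, but with 2 pairs the numbers do not establish a pairing. With the replicate block, 3358 genes were called lower and 2236 higher by adjusted p, and 821 and 841 past 2-fold. Of the members, 6 were called lower and 4 higher with the replicate block (2 and 3 past 2-fold), and Cd28 was the 1 member whose call it changed (adjusted p = 0.025). Other genes named singly were not run under the alternatives. Under the alternatives there were 404 values of the members, Zc3h12a and the genes past 2-fold in pathway lists (Cd40 included). Of these, 389 kept their side of the threshold, 12 lost a call, 3 gained one and 0 changed direction. The 389 include 13 values of Cd40, whose test is not used because it passed the filter only through WT. Of 350 counts and medians of the pathway lists under the alternatives, 42 moved. Leaving out list genes averaging under 1 FPKM in a group was also chosen after seeing the data. Windows every 50 nt and the longest 3′UTR of each gene, both chosen after seeing the data, gave 59 and 37 stem-loops in the members, against 36.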
